A study of Mus musculus with 9 samples.

Results

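The genes described here encode short structured noncoding RNAs of the nucleus and cytoplasm: the 7SL RNAs Rn7s1, Rn7s2 and Rn7s6, the 7SK RNA Rn7sk, the RNase MRP RNA Rmrp, the RNase P RNA Rpph1, and the U11 and U12 RNAs Rnu11 and Rnu12. They were chosen by name, before any filter on level, through the mouse GENCODE M21 annotation of the transcript identifiers. The 8 symbols stood for 9 gene IDs, because Rmrp has a ribozyme entry and a lincRNA entry, and 8 of these IDs were found among the 52408 genes of the table. Rn7sk was not analysed here. Total RNA of MIN6 cells, an established mouse beta cell tumour line, was measured in 3 groups of 3 libraries. These were cells treated with EGCG (epigallocatechin gallate, the main catechin of green tea) upon Nr4a1 overexpression, cells with Nr4a1 overexpression alone, and untransfected control cells. Both groups with overexpression also differed from control in having been transfected, so the effect of Nr4a1, an orphan nuclear receptor, and that of transfection cannot be told apart. EGCG was given only with overexpression. Its dose and duration and the way of transfection are missing from the sources used here.

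7SL RNA is the scaffold of the signal recognition particle, which binds the signal peptides of secretory and membrane proteins as they leave the ribosome and brings them to the endoplasmic reticulum. 7SK RNA holds the kinase P-TEFb in an inactive complex. RNase MRP and RNase P are related ribonucleoproteins that share most of their protein subunits, of which the first processes precursors of ribosomal RNA and the second removes the 5′ leader of precursor tRNAs. U11 and U12 RNA recognise the 5′ splice site and the branch point of the rare minor-class introns. All but U11 and U12 are products of RNA polymerase III, while U11 and U12 are made by RNA polymerase II and released by the Integrator complex. Beta cells secrete large amounts of insulin and so use the signal recognition particle heavily.

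Comparing the sequences of the entries shows how far the values of these genes can be separated. They come from the GENCODE M21 transcripts (GRCm38), an older build than the GRCm39 named in the submitters' processing notes. Rn7s1 (chromosome 12, plus strand) and Rn7s2 are identical over all 300 bases in that release, so no read within those bases can tell the pair apart. Whether the entries were also identical in the authors' reference is not known. Rn7s6 (chromosome 6, plus strand) shares the first 214 bases with 3 differences. Its remaining 77 bases are unlike the last 86 of Rn7s1. Sequences follow for Rmrp, U11 and U12, whose entries overlap others or share a run of letters.

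The lincRNA entry of Rmrp (chromosome 4, minus strand, 281 bases) contains the whole ribozyme entry of 271 bases and adds 5 bases before it and 5 after it, which are in capitals. Those 10 bases at the ends are all that separates the Rmrp entries.
Rmrp lincRNA: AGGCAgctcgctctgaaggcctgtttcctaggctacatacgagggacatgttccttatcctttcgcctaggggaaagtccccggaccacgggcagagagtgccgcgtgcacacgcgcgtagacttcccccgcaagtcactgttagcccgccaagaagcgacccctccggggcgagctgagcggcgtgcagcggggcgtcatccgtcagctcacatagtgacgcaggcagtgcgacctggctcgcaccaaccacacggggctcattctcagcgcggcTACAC

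U11 (Rnu11, chromosome 4, minus strand, 134 bases) and U12 (Rnu12, chromosome 15, plus strand, 151 bases) each carry the letters AATTTTT once on their own strand, the kind of U-rich run that Sm proteins bind, and capitals mark it. It lies at bases 87 to 93 of Rnu11 and 74 to 80 of Rnu12. The same letters were found in 83 of 1383 annotated snRNA transcripts (6.0%) and in 5 of 1507 snoRNA transcripts (0.33%), all searched on the transcript's own strand.
Rnu11: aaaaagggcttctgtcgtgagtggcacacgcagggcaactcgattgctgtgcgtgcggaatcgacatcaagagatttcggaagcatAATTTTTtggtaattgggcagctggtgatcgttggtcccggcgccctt
Rnu12: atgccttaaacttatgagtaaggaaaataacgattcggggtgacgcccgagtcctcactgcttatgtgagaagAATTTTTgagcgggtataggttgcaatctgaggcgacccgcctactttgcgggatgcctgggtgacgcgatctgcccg

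A lincRNA entry named Gm28872 (158 bases) covers all 134 bases of Rnu11 on the opposite strand. The strand setting of the authors' counting is not given in the sources used here, so reads of Rnu11 and Gm28872 may not have been told apart. Outside these overlaps, 6 other predicted genes match a member over at least 80% of its length at 90% identity or more, and all 6 were listed at 0 in every library.

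Levels are given in TPM, each transcript's share of its library after division by length. The entries are only 134 to 319 bases long, and how well the division holds for such short RNAs was not examined. Comparisons of level between entries are therefore uncertain. The depth of the libraries is unknown because TPM keeps none, and where an abundant RNA takes more of the total, every other TPM is lower. The 8 entries together held 41.8% to 46.3% of the TPM of a library. Nothing in the labels says that the 3 libraries of a group came from separate cultures, so p-values cover no more than library-to-library spread. The limma errors also draw on other genes of similar level through the mean-variance trend. For the most abundant entries they can be wider than the entry's own spread. The transfected gene, Nr4a1, was higher with overexpression than in control by 6.33 on the log2(TPM + 1) scale and lower with EGCG than with overexpression alone, by -1.34 (limma, Benjamini-Hochberg adjusted p = 1.23e-08 and 3.71e-05). Of 4 duct, 5 fibroblast, 5 immune and 4 endothelial markers 0 reached 1 TPM, and of 6 acinar markers 1 did, against all 10 beta cell markers examined. The summed level of the beta cell markers was 4040 to 4371 TPM with EGCG, 5807 to 6092 TPM with overexpression and 3760 to 3917 TPM in control, and its part in the results was not tested. Libraries also differed by group outside these RNAs. The mitochondrial genome held 8.55%, 8.68% and 9.42% of TPM with EGCG, 7.79%, 7.45% and 7.31% with overexpression, and 12.0%, 12.0% and 10.8% in control. Olfactory, vomeronasal and trace amine receptor genes, which beta cells are not known for, summed to 12.2, 10.3 and 15.4 TPM with EGCG, 6.82, 5.75 and 6.23 TPM with overexpression, and 131, 109.6 and 66.5 TPM in control. In both measures control replicate 3 was the control nearest to the other groups, and the part of either in the results was not tested. Control replicate 3 and EGCG replicate 3 stood apart from the other libraries of their group for several of these RNAs, and results that rest on them are given with and without both. The pair was picked from the values of these same RNAs, so leaving it out narrows their spread. A smaller p without the pair follows from that choice and is not given.

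With Nr4a1 overexpression, Rn7s1, both Rmrp entries and Rnu11 had higher TPM than in control cells, and Rn7s6 and Rnu12 had lower TPM. That is 4 higher and 2 lower of 8 entries, against 38.2% higher and 21.3% lower among all 11950 genes tested (59.5% called in either direction). In cells given EGCG upon overexpression, Rnu11 and Rnu12 were higher and the lincRNA entry of Rmrp was lower than with overexpression alone, 3 of 8 entries against 53% of all genes (18.8% higher and 34.1% lower). Against control, EGCG cells had higher Rnu11, Rnu12 and Rmrp lincRNA, 3 of 8 against 18.2% of all genes (11.1% higher and 7.1% lower). The first pair of comparisons share the overexpression libraries, and the last shares its libraries with both. In bulk RNA, fewer cells that hold an RNA and less of it per cell cannot be told apart. All 8 entries passed the filter of at least 1 TPM in at least 3 libraries. Rnu11 did so through 5 libraries, all of them with overexpression, and would not have passed without the EGCG libraries, so its calls support nothing. Without Rnu11 the counts were 3 higher and 2 lower of 7, 1 higher and 1 lower of 7, and 2 higher and 0 lower of 7. These counts still take the identical Rn7s1 and Rn7s2 apart and count the overlapping Rmrp entries separately. Summed, Rn7s1 with Rn7s2 was not called with overexpression against control (0.12, limma, adjusted p = 0.682). The summed Rmrp entries were higher by 0.99 (adjusted p = 0.0101).

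**Figure D1:**
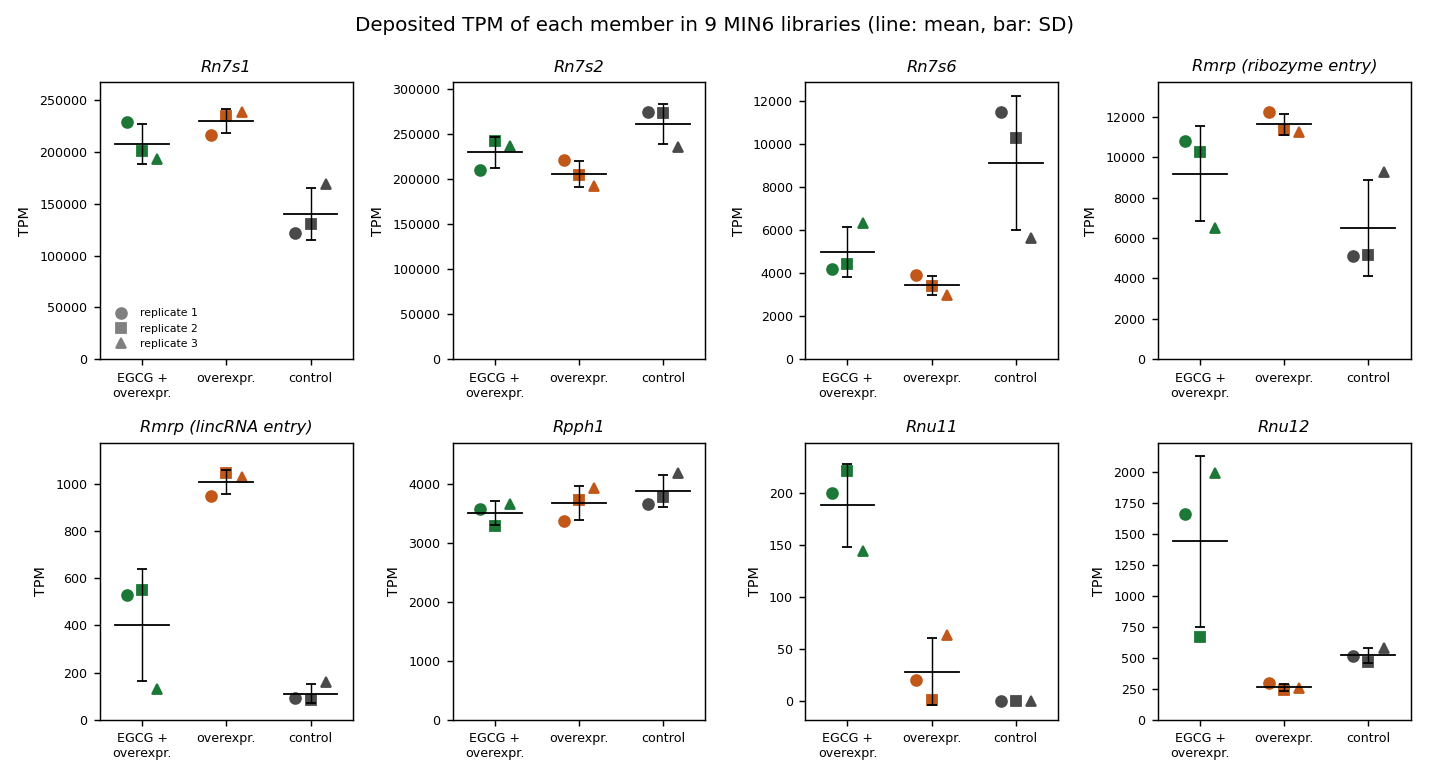
Deposited TPM (y axis, linear, from 0, separate for each panel) of the 8 entries in EGCG with overexpression, overexpression and control libraries. Points are libraries with the replicate number as shape, lines are means and bars SD (n = 3), with no mean drawn for Rnu11 in control, where all 3 libraries are listed at 0. Control replicate 3 lies nearer to the overexpression libraries than the other controls do for Rn7s1, Rn7s6 and the Rmrp ribozyme entry.

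Rn7s1 and Rn7s2 were the most abundant entries of all genes by mean TPM, with Rn7s2 first and Rn7s1 second. Rn7s1 had 229328, 201086 and 193352 TPM in the EGCG libraries, 216743, 234906 and 238876 TPM with overexpression, and 122007, 130613 and 168918 TPM in control. All 6 libraries with overexpression lay above the 3 controls, and the EGCG and overexpression libraries overlapped. Rn7s1 was higher with overexpression than in control by 0.73 ± 0.24 (log2, SE; limma, Benjamini-Hochberg adjusted p = 0.0281), while the difference of EGCG from overexpression was -0.15 (adjusted p = 0.631) and that of EGCG from control 0.58 (adjusted p = 0.127). Without control replicate 3 and EGCG replicate 3, EGCG was above control by 0.77. The call of overexpression against control was lost without control replicate 1 (adjusted p = 0.107), control replicate 2 (0.115), overexpression replicate 2 (0.0843), overexpression replicate 3 (0.0594) or EGCG replicate 2 (0.0618). It was lost too after quantile normalization (adjusted p = 0.234), rescaling to nuclear protein-coding genes (0.0592), with no filter on low values (0.272) and with transcripts in place of genes (0.151). Quantile normalization sets each value by its rank in the library. For an entry at the top of the ranks, the loss there says little.

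Rn7s2 moved the other way. It had 209828, 242687 and 236657 TPM in the EGCG libraries, 220756, 204659.5 and 192104 TPM with overexpression, and 274668, 274027 and 235341 TPM in control. The overexpression libraries lay below all controls and the EGCG libraries overlapped both groups. The difference of overexpression from control was -0.34 ± 0.24 and did not pass the test with limma's trend (adjusted p = 0.248), but did without the trend (adjusted p = 0.00866). Those of EGCG were 0.16 from overexpression (adjusted p = 0.610) and -0.19 from control (adjusted p = 0.624).

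Because Rn7s1 and Rn7s2 are the same sequence in GENCODE M21, their sum is the better measured quantity. The sum was 439156, 443773 and 430009 TPM with EGCG, 437499, 439565 and 430980 TPM with overexpression, and 396676, 404639 and 404259 TPM in control. All 6 libraries with overexpression were above all 3 controls. The sum differed between overexpression and control by 0.12 ± 0.23 (adjusted p = 0.682), and between EGCG and overexpression by 0.01 (adjusted p = 0.987), in a limma fit chosen after the data were seen. That SE is wider than the spread of the sum itself, which was 436015 ± 4481 TPM with overexpression and 401858 ± 4492 TPM in control (SD). It draws on other genes through the mean-variance trend. Without the trend, the adjusted p of overexpression against control was 0.0502. Missing the threshold does not show that the sum was the same. What differed more was the division of the sum: Rn7s1 took 52.2%, 45.3% and 45.0% of it with EGCG, 49.5%, 53.4% and 55.4% with overexpression, and 30.8%, 32.3% and 41.8% in control. Rn7s2 was 0.80 to 2.25 times Rn7s1 over the libraries, and whether the authors' reference held them as identical was not tested. Where 2 entries are identical, how estimated reads were divided between them is no measure of either gene.

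**Figure D2:**
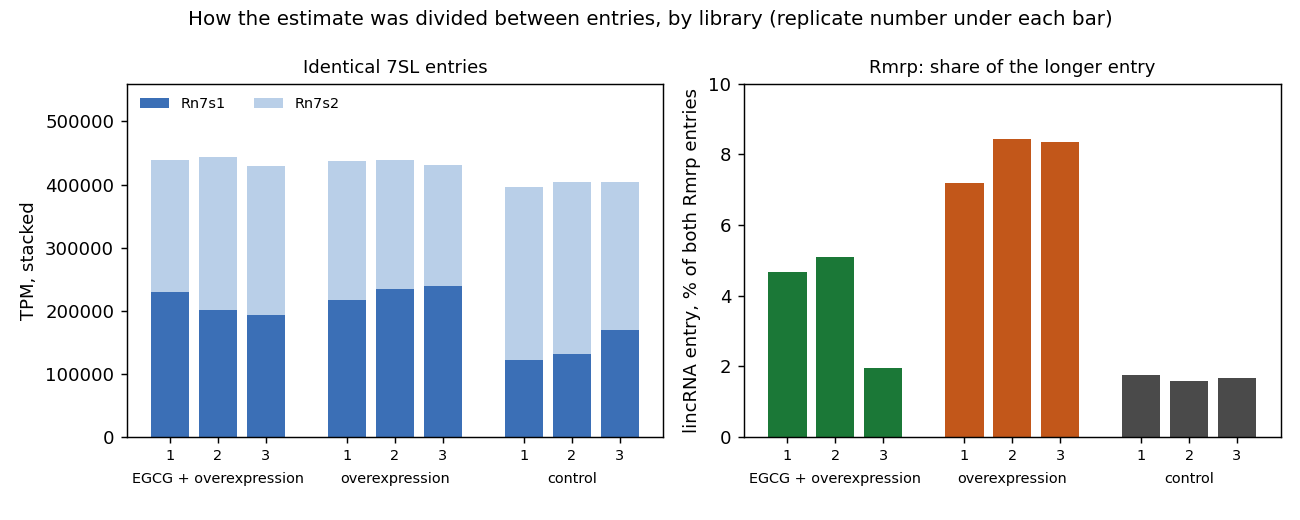
Left, TPM of Rn7s1 and Rn7s2 stacked (y axis), by library. Right, the lincRNA entry as a percentage of both Rmrp entries. The 7SL sum is 396676 to 443773 TPM in every library while its division differs, and the Rmrp share is 7.19% to 8.44% in the 3 overexpression libraries and 1.58% to 1.76% in the 3 controls.

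Rn7s6 is the third 7SL gene. Its first 214 bases differ from Rn7s1 at 3 positions, so reads there may have been shared with the far more abundant Rn7s1 and Rn7s2. How far this set its TPM was not tested. The Rn7s6 entry was lower with overexpression. It had 4177, 4427 and 6299.7 TPM with EGCG, 3885, 3402 and 2983 TPM with overexpression, and 11482, 10283 and 5603 TPM in control. Every overexpression library was below every other library, and control replicate 3 lay among the EGCG libraries. Rn7s6 was lower with overexpression than in control by -1.36 ± 0.27 (limma, adjusted p = 0.00211) and by -1.67 without control replicate 3 and EGCG replicate 3. The differences of EGCG were 0.52 from overexpression (adjusted p = 0.131) and -0.84 from control (adjusted p = 0.0606). Without control replicate 3 and EGCG replicate 3, these differences were 0.34 and -1.34. The difference from overexpression was not called in 8 of the 9 fits that left out 1 library. That from control was not called in 7 of them. The exceptions were the fit without control replicate 3 for both and, for the second, that without EGCG replicate 3. Those libraries were picked from these same values. In a fit of only the EGCG and overexpression groups, the first was called (limma, adjusted p = 0.0373). As a share of all 7SL TPM, Rn7s6 was 0.94%, 0.99% and 1.44% with EGCG, 0.88%, 0.77% and 0.69% with overexpression, and 2.81%, 2.48% and 1.37% in control.

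Proteins of the signal recognition particle and its receptor were tested as 10 genes. For the counts of this and later lists, 38.2% of all genes were higher and 21.3% lower with overexpression than in control. With EGCG against overexpression the shares were 18.8% and 34.1%, and with EGCG against control 11.1% and 7.1%. With overexpression 4 were higher and 1 lower than in control, and the median difference was 0.15 against 0.10 over all genes. Srprb, the membrane-anchored receptor subunit, was at 13.7 ± 0.92 TPM with overexpression and 9.65 ± 0.12 TPM in control (SD, n = 3 each; log2 difference 0.46, limma adjusted p = 0.000111), and Srp68 and Srp72, which bind 7SL RNA together, were higher by 0.42 and 0.21 (adjusted p = 0.00213 and 0.0215). Srp54b, a copy of the GTPase that binds signal peptides, was higher by 1.22 (adjusted p = 0.00579) and its near-identical copy Srp54a was lower by -0.37 (adjusted p = 0.0295), so the division of reads between the copies is uncertain. With EGCG, 6 of 10 were lower than with overexpression and 0 higher (median -0.28, against -0.09 over all genes), among them Srprb, Srp72 and Srp68 at -0.28, -0.28 and -0.33 (adjusted p = 0.00226, 0.0056 and 0.00819). Against control, EGCG had only Srp19 called, lower by -0.46 (adjusted p = 0.00726). The median with overexpression was -0.00 after quantile normalization, with 3 higher and 3 lower, and only 1 gene was lower with EGCG when TPM was rescaled to nuclear protein-coding genes.

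Rmrp was higher with overexpression. The ribozyme entry had 10794, 10251 and 6480.3 TPM with EGCG, 12244, 11361 and 11271 TPM with overexpression, and 5103, 5137 and 9259 TPM in control. Overexpression libraries were above all others, and the EGCG and control libraries overlapped through control replicate 3 and EGCG replicate 3. The entry was higher with overexpression than in control by 0.90 ± 0.26 (limma, adjusted p = 0.0153), a call lost without control replicate 1 (adjusted p = 0.0555) or control replicate 2 (0.0579). EGCG differed from overexpression by -0.38 (adjusted p = 0.253) and from control by 0.52 (adjusted p = 0.188). Without control replicate 3 and EGCG replicate 3, EGCG differed from control by 1.04 and from overexpression by -0.14, and overexpression differed from control by 1.18.

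The lincRNA entry of Rmrp had 528, 550.0 and 129 TPM with EGCG, 948, 1047 and 1028 TPM with overexpression, and 91.6, 82.3 and 158 TPM in control. Its libraries with overexpression were above all others and EGCG replicate 3 fell among the controls. It was higher with overexpression by 3.24 ± 0.50 (limma, adjusted p = 0.000483) and lower with EGCG than with overexpression by -1.59 ± 0.50 (adjusted p = 0.0239), and this call was lost without overexpression replicate 1, 2 or 3 (adjusted p = 0.0537, 0.0596 and 0.0585) and with no filter on low values (0.0814). Without control replicate 3 and EGCG replicate 3 these differences were 3.52 and -0.90. EGCG against control was 1.65 (adjusted p = 0.0494), not called in 7 of the 9 fits that left out 1 library, and 2.62 without control replicate 3 and EGCG replicate 3.

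Added together, the Rmrp entries had 11322, 10801 and 6609 TPM with EGCG, 13192, 12408 and 12299 TPM with overexpression, and 5195, 5220 and 9417 TPM in control. The sum was higher with overexpression than in control by 0.99 ± 0.26 (limma, adjusted p = 0.0101, summed after the data were seen) and differed by -0.44 between EGCG and overexpression (adjusted p = 0.190). The longer entry made up 4.67%, 5.09% and 1.95% of the sum with EGCG, 7.19%, 8.44% and 8.36% with overexpression, and 1.76%, 1.58% and 1.68% in control. That share was above every control in all 6 libraries with overexpression and stayed within 1.58% to 1.76% in control replicate 3, although the Rmrp sum there was well above the other controls. Ccdc107, a protein-coding gene that overlaps both entries on the opposite strand, had 6.23 to 7.5 TPM with EGCG, 11.3 to 12.1 TPM with overexpression and 6.19 to 7.52 TPM in control, and its part in the Rmrp values was not tested.

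Rpph1 was the entry whose level differed least. It had 3586, 3284 and 3664 TPM with EGCG, 3372, 3732 and 3929 TPM with overexpression, and 3661, 3790.3 and 4194 TPM in control, and all 3 groups overlapped. The differences were -0.08 ± 0.10 for overexpression against control, -0.07 ± 0.10 for EGCG against overexpression and -0.14 ± 0.10 for EGCG against control (limma, adjusted p = 0.513, 0.602 and 0.324). A p that misses the threshold does not show that the levels were the same, and the sign of each turned under quantile normalization. The Rmrp sum was 3.16, 3.29 and 1.80 times Rpph1 with EGCG, 3.91, 3.33 and 3.13 times with overexpression, and 1.42, 1.38 and 2.25 times in control, so that the overexpression and control libraries did not overlap in the ratio of the RNase MRP RNA to the RNase P RNA. Ccnb1ip1, which overlaps Rpph1 on the same strand, was at 0.21 TPM or less in every library.

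The protein subunits of RNase P and RNase MRP were mostly higher with overexpression. Of 11 genes tested 7 were higher and 0 lower than in control, with a median of 0.35 against 0.10 over all genes. Rpp25l was at 12.9 ± 0.53 TPM with overexpression and 5.25 ± 1.02 TPM in control (SD, n = 3 each), higher by 1.17 (limma, adjusted p = 3.48e-05), and Pop5, Pop7 and Rpp38 were higher by 0.76, 0.70 and 0.32 (adjusted p = 0.000105, 5.15e-05 and 0.00138). With EGCG 8 of 11 were lower than with overexpression and 0 higher, with a median of -0.42 against -0.09. Rpp25l averaged 7.25 ± 0.82 TPM with EGCG and was lower by -0.76 (adjusted p = 0.000574), and Pop5, Rpp25 and Pop7 were lower by -0.45, -0.44 and -0.42 (adjusted p = 0.00263, 0.00245 and 0.00132). Against control, EGCG left 3 of 11 higher, Pop7, Rpp25l and Pop5, by 0.28, 0.41 and 0.31 (adjusted p = 0.0318, 0.0401 and 0.0456). Under quantile normalization 6 were higher and 0 lower with overexpression, and 1 higher and 6 lower with EGCG against overexpression.

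Rnu11 was listed at 0 in all 3 control libraries. It had 199.7, 222 and 144 TPM with EGCG and 20.1, 0.95 and 63.9 TPM with overexpression. Every EGCG library was above every overexpression library, and the overexpression libraries differed widely among themselves. On the log2(TPM + 1) scale the difference of EGCG from overexpression was 3.75, and it was 2.33 without overexpression replicate 2 and 4.86 without overexpression replicate 3. No p-value is given for this entry alone, because it passed the filter on low values only through libraries with overexpression and would have failed it without the EGCG group. Against the controls no fold is given, because they are listed at 0.

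The antisense entry Gm28872 ran the other way. It had 242, 281 and 397 TPM with EGCG, 104, 102 and 104 TPM with overexpression, and 832, 803 and 522 TPM in control. The 3 groups did not overlap, and Gm28872 was lower with overexpression than in control by -2.76 ± 0.21 (limma, adjusted p = 7.61e-06) and higher with EGCG than with overexpression by 1.53 ± 0.21 (adjusted p = 0.000297). The sum of Rnu11 and Gm28872 was 441, 503 and 541 TPM with EGCG, 124, 103 and 168 TPM with overexpression, and 832, 803 and 522 TPM in control. On the sum, taken after the data were seen, the direction against control turned: -2.44 ± 0.21 with overexpression (adjusted p = 1.69e-05) and -0.51 ± 0.21 with EGCG (adjusted p = 0.118). The difference of EGCG from overexpression kept its direction on the sum (1.93, adjusted p = 8.92e-05). Which strand the reads of this locus came from cannot be told from the deposited values, and because the entries differ in length their sum also depends on how reads were divided. The direction of Rnu11 against control holds for the entry as the authors estimated it, not for the locus.

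**Figure D3:**
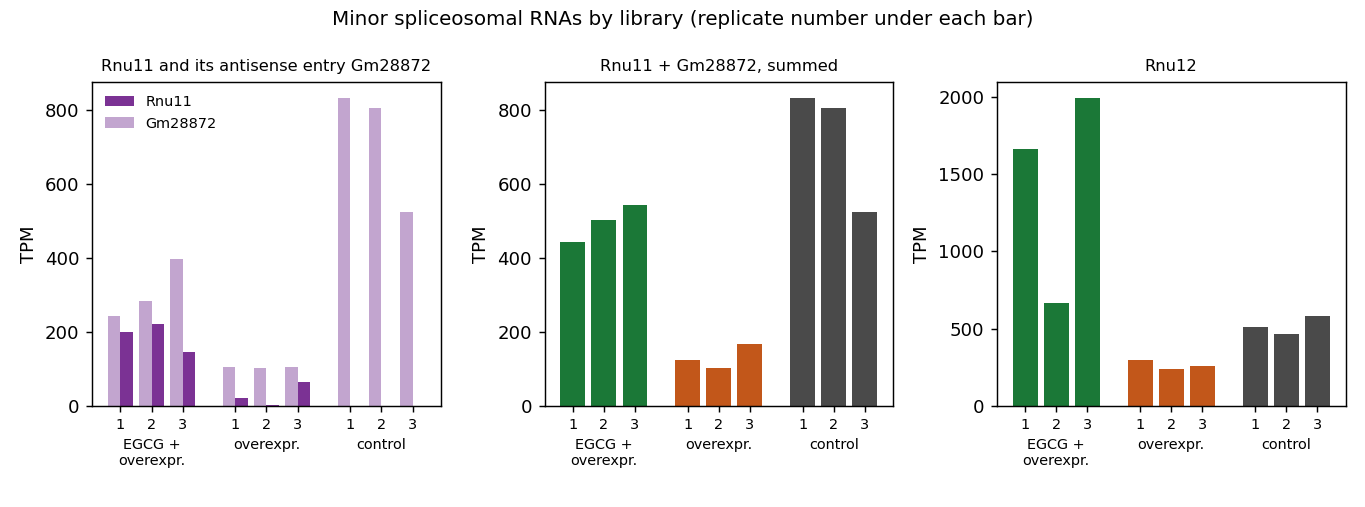
TPM (y axis) by library of Rnu11 beside its antisense entry Gm28872, of their sum, and of Rnu12. Rnu11 is listed at 0 in control where Gm28872 is 522 to 832 TPM, the summed locus is lowest in the 3 overexpression libraries (103 to 168 TPM), and Rnu12 is lowest there too (239 to 295 TPM).

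Rnu12 had 1667, 668 and 1997 TPM with EGCG, 295, 239 and 254 TPM with overexpression, and 512, 465 and 583 TPM in control. The groups did not overlap: every EGCG library was above every control and every overexpression library was below. Rnu12 was higher with EGCG than with overexpression by 2.31 ± 0.34 (limma, adjusted p = 0.000488), which held in all 9 fits that left out 1 library, and by 2.01 without control replicate 3 and EGCG replicate 3 (adjusted p = 0.00201). It was lower with overexpression than in control by -0.98 ± 0.34 (adjusted p = 0.0318), with adjusted p between 0.0507 and 0.0845 when any 1 of the 6 overexpression and control libraries was left out. EGCG was above control by 1.33 ± 0.34 (adjusted p = 0.0290), lost without EGCG replicate 1 (0.10), EGCG replicate 3 (0.0647), control replicate 1 (0.0775) or control replicate 2 (0.0855), and 1.11 (0.0562) without control replicate 3 and EGCG replicate 3. Both calls against control were lost with transcripts in place of genes (adjusted p = 0.0532 for overexpression and 0.0507 for EGCG), that of overexpression also after quantile normalization (0.0697) and with no filter (0.0628), and that of EGCG in a fit of only those groups (0.0746). In overexpression against control, 7 of 8 entries did not overlap between the groups. The counts were 5 of 8 in EGCG against overexpression and 3 of 8 in EGCG against control. Among all genes, 65%, 64.7% and 34.9% did not overlap. Without Rnu11, whose calls support nothing, the counts were 6, 4 and 2 of 7. They still take Rn7s1 and Rn7s2, and the Rmrp entries, as separate.

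Of 13 minor spliceosome protein genes tested, 4 were higher and 3 lower with overexpression than in control (median -0.06, against 0.10 over all genes). Snrnp35, a protein of the U11 particle, was at 10.3 ± 0.29 TPM with overexpression and 5.31 ± 0.29 TPM in control (SD, n = 3 each), higher by 0.84 (limma, adjusted p = 6.50e-06). Snrnp48, of the same particle, and Zrsr1, whose human relative ZRSR2 acts at the 3′ splice site of minor introns, were lower by -0.63 and -0.82 (adjusted p = 0.000152 and 0.000776), and Zcrb1 was lower by -0.51 (0.00188). With EGCG 2 were higher and 2 lower than with overexpression: Snrnp48 and Zrsr1 were higher by 0.33 and 0.45 (adjusted p = 0.00758 and 0.0200), and Snrnp35 and Rnpc3, a protein that binds U12 RNA, were lower by -0.61 and -0.73 (5.57e-05 and 0.00011). Against control EGCG had 1 higher, Snrnp35, and 3 lower, Zcrb1, Rnpc3 and Snrnp48. The sign of the list's median turned under rescaling to the TPM outside these RNAs for overexpression against control (0.02), and under quantile normalization (0.06) and rescaling to nuclear protein-coding genes (0.07) for EGCG against overexpression.

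Rn7sk itself was not analysed here, but the proteins of its complex were. With overexpression 4 of 11 genes were higher and 3 lower than in control (median -0.07). Larp7, which binds and stabilises 7SK RNA, was at 8.52 ± 0.43 TPM with EGCG, 22.4 ± 1.2 TPM with overexpression and 10.7 ± 1.2 TPM in control (SD, n = 3 each). It was higher with overexpression by 1.01 (limma, adjusted p = 1.13e-05), lower with EGCG than with overexpression by -1.30 (3.97e-06) and lower with EGCG than in control by -0.29 (0.0381). Hexim2 and Hexim1, which inhibit P-TEFb when bound to 7SK, were higher with overexpression by 0.50 and 0.43 (adjusted p = 0.000141 and 0.000923) and lower with EGCG than with overexpression by -0.50 and -0.48 (0.000170 and 0.000628). Ell2, an elongation factor that works with released P-TEFb, ran opposite, lower with overexpression by -0.86 (0.000606) and higher with EGCG than with overexpression by 0.82 (0.000979). With EGCG 2 of 11 were higher and 4 lower than with overexpression, and against control 0 were higher and 3 lower, among them Cdk9 and Larp7. The median with overexpression turned to 0.01 under rescaling to the TPM outside these RNAs.

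**Figure D4:**
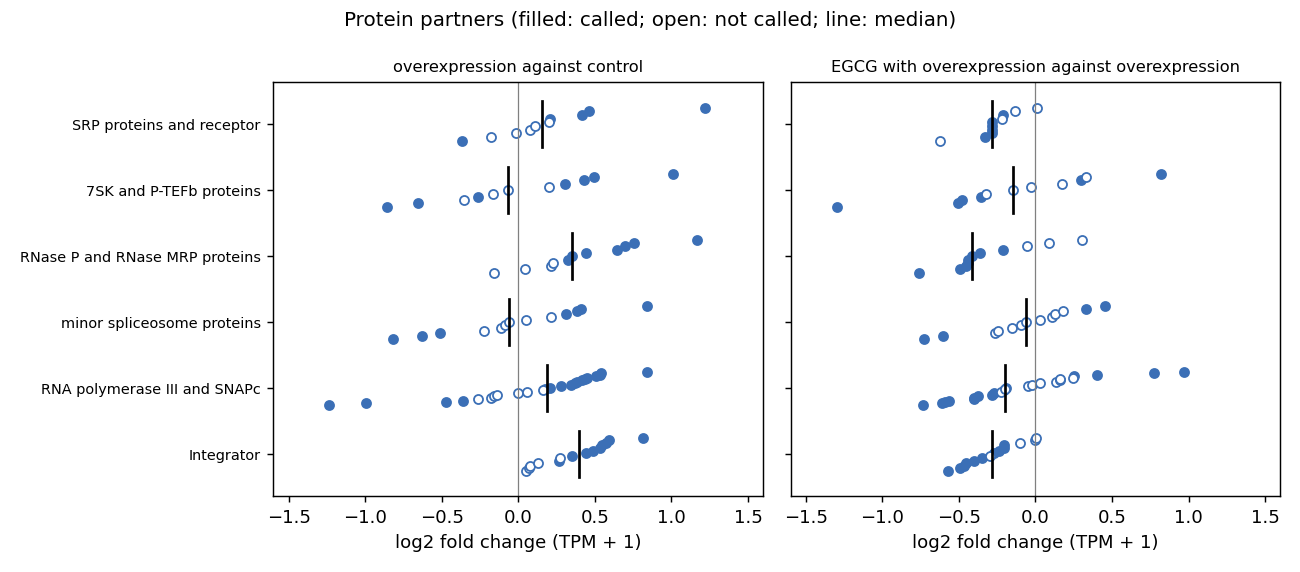
Log2 fold changes (x axis, log2 of TPM + 1) of the protein genes of 6 lists, for overexpression against control and EGCG with overexpression against overexpression. Each point is a gene, filled where limma's adjusted p is under 0.05, and the lines are list medians, which are 0.35 and -0.42 for the RNase P and RNase MRP proteins and 0.40 and -0.28 for Integrator.

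The machinery that makes these RNAs was also measured. A list of 24 genes held RNA polymerase III, its transcription factors, its repressor Maf1, the snRNA-activating complex, Zfp143 and Pou2f1. Of these, 13 were higher and 4 lower with overexpression than in control (median 0.19 against 0.10). With EGCG 4 were higher and 11 lower than with overexpression (median -0.20 against -0.09). Among the 4 lower with overexpression were Maf1 and Pou2f1, by -0.36 and -0.47 (limma, adjusted p = 0.00424 and 0.00603), so the counts do not measure the polymerase alone. Polr1c and Crcp, subunits of the polymerase, were higher with overexpression by 0.84 and 0.54 (limma, adjusted p = 3.00e-06 and 3.54e-05). Polr3gl and Polr3g, alternative forms of a subunit, were both lower with overexpression, by -1.24 and -0.99 (adjusted p = 3.54e-05 and 4.59e-05), and both higher with EGCG than with overexpression, by 0.77 and 0.97 (0.000743 and 7.51e-05). Under quantile normalization and under rescaling to nuclear protein-coding genes the EGCG comparison gave 7 higher and 7 lower.

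Integrator, which cleaves the 3′ ends of nascent U RNAs, had 9 of 14 genes higher and 0 lower with overexpression (median 0.40, against 0.10 over all genes). Among all genes 38.2% were higher and 21.3% lower. With EGCG 0 were higher and 10 lower than with overexpression (median -0.28 against -0.09), beside 18.8% and 34.1% of all genes. Ints11, its endonuclease, was at 8.49 ± 0.30 TPM with EGCG, 13.1 ± 0.33 TPM with overexpression and 7.02 ± 0.61 TPM in control (SD, n = 3 each), higher with overexpression by 0.81 (limma, adjusted p = 8.62e-06) and lower with EGCG than with overexpression by -0.57 (9.00e-05). Against control, EGCG had 3 of 14 higher, Ints3, Ints11 and Ints5, and 0 lower. Rescaled to nuclear protein-coding genes, 4 of 14 were lower with EGCG than with overexpression.

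Of 15 genes for proteins that bind, trim or degrade structured RNAs, 6 were higher and 3 lower with overexpression (median 0.07). The nuclear exosome nucleases Exosc10 and Dis3 were higher by 0.74 and 0.68 (limma, adjusted p = 1.16e-05 and 0.000462), and Toe1, a deadenylase that trims snRNA ends, by 0.65 (2.00e-05). With EGCG 2 were higher and 7 lower than with overexpression, Exosc10, Dis3 and Toe1 by -0.55, -0.68 and -0.60 (8.20e-05, 0.000587 and 4.49e-05). Against control EGCG had 0 higher and 3 lower, among them Ssb, the La protein that binds new RNA polymerase III transcripts, by -0.27 (0.0417). The median with overexpression was -0.03 under quantile normalization. Of the 97 genes in all 7 lists, 60 were called with overexpression, 57 for EGCG against overexpression and 19 for EGCG against control, shares near the 59.5%, 53% and 18.2% called among all genes. The last count became 37 without control replicate 3 and EGCG replicate 3.

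Among other small RNAs, 42 of 98 snoRNA genes tested were higher with overexpression than in control and 1 lower, 7 of 11 scaRNA genes were higher and 0 lower, and 7 of 22 snRNA genes outside the members were higher and 1 lower, beside 38.2% higher and 21.3% lower among all genes. Rnu2-10, a U2 RNA of the major spliceosome, was at 3076 ± 596 TPM with EGCG, 4374 ± 24.9 TPM with overexpression and 1865 TPM on average in control, higher with overexpression by 1.23 (limma, adjusted p = 9.32e-05) and lower with EGCG than with overexpression by -0.53 (0.0126). Rprl3, an RNase P RNA-like gene, was at 105 ± 3.47 TPM with EGCG, 129 ± 6.33 TPM with overexpression and 72.9 TPM on average in control, higher with overexpression by 0.82 (5.48e-05) where Rpph1 was not called.

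In the order of mean TPM, Rn7s2 and Rn7s1 came first, followed by the Rmrp ribozyme entry, Rn7s6, Rpph1, Rnu12, the Rmrp lincRNA entry and Rnu11. This is an order of estimates for short entries of different length, and it differed between groups. Rn7s1 and Rn7s2 overlapped in EGCG and in overexpression libraries but not in control, Rn7s6 overlapped Rpph1 only with overexpression, and it overlapped the Rmrp ribozyme entry only in control. Rnu12 was above the Rmrp lincRNA entry in every EGCG and control library and below it in every overexpression library. The tested genes whose centred log2 profiles over the 9 libraries were nearest, by root-mean-square difference, were Hist1h4h for the Rmrp ribozyme entry (0.126), Snora78 for the Rmrp lincRNA entry (0.546), Vps26c for Rn7s1 (0.0815), Ctsl for Rn7s2 (0.0404), Rpl14-ps1 for Rn7s6 (0.123), Car15 for Rnu12 (0.394) and Rps27l for Rpph1 (0.0608). Rnu11 had no near profile, since the closest, Snora43, differed by 2.12.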

How the data were processed

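Total RNA from 9 MIN6 libraries was measured in 3 groups of 3, taken from the sample titles. The titles name no batch, and all libraries were treated as a single batch. Per the labels' protocols, the kit keeps strand and starts from total RNA. The authors deposited TPM for each Ensembl transcript. The submitters' processing notes name RSEM 1.2.31, STAR 2.7.1a, cutadapt 2.8, FastQC 0.11.9, bcl2fastq 2.20 and GRCm39; the sources used here do not give the annotation release or the strand setting. The estimation shares reads among identical or overlapping entries, which changes the TPM of single entries. It leaves the sum unchanged only where the lengths are equal, as for Rn7s1 and Rn7s2 in GENCODE M21.

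Identifiers were joined to GENCODE M21 genes (GRCm38), of which 97.13% of 142435 matched, and TPM was summed per gene ID; the 4089 unmatched identifiers held 17.99% to 20.57% of the TPM of a library. Genes that reached 1 TPM in 3 or more libraries entered limma 3.58.1 in R 4.3.3 (mean-variance trend, all 9 libraries, two-sided) on log2(TPM + 1), called at a Benjamini-Hochberg adjusted p under 0.05 over all 11950 genes. Errors are SD of TPM and SE of log2 differences. Entries were compared with BLAST 2.17.0 and Biopython 1.88, and other steps used Python 3.11.15, pandas 2.3.3 and matplotlib 3.10.9. The fit was tested on simulated data.

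Named genes are the members and Nr4a1, for each list up to 4 called genes with the smallest adjusted p in a comparison, and the nearest profile of each member; Gm28872, Ccdc107, Ccnb1ip1 and further list genes were named for their overlap or after their values were seen. The members and lists were chosen with earlier results of these data known. Alternatives covered the pseudocount, filters, scalings, samples in the fit, the trend, transcripts in place of genes, a replicate block and leaving out each library; summed copies, rescaling outside the members and leaving out control replicate 3 with EGCG replicate 3 were added after the data were seen. The letters of the 7SL entries are not reported here.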

Additional observations from a re-analysis of the deposited data

How the results depend on the processing

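Quantile normalization turned the sign of Rpph1 to 0.073 for overexpression against control, 0.089 for EGCG against overexpression and 0.16 for EGCG against control, and put the Rmrp ribozyme entry at 0 for EGCG against overexpression. Its values are set by rank in the library, so differences of these abundant entries there reflect ranks only. Rescaling to nuclear protein-coding genes gave Rpph1 0.087 and Rn7s1 0.0029 for EGCG against overexpression and moved the median of all genes there to 0.04, against -0.09 before; calls became 3481 higher and 2588 lower, against 2250 and 4080. For overexpression against control that rescaling gave 3796 and 3236, against 4561 and 2545. Rescaling outside the members put Rpph1 at 0.0091 for overexpression against control. Summing copies gave 0.12 (Rn7s2, overexpression and EGCG, each against control), 0.0053 (Rn7s1, EGCG against overexpression) and, for Rnu11 against control, -2.44 with overexpression and -0.51 with EGCG, with or without the trend.

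The number of entries called for EGCG against control was 3. It was 5 at a filter of 5 TPM and 5 without control replicate 3 and EGCG replicate 3, a pair picked from these same values. It was 1 with only the compared groups, 1 for transcripts and 1 for summed copies, and 1 to 5 when 1 library was left out. For overexpression against control it was 3 to 6 of 8 and for EGCG against overexpression 2 to 4 when 1 library was left out. Partner genes called for EGCG against control, 19, became 6 with only the compared groups, 37 without control replicate 3 and EGCG replicate 3, and 6 to 35 with 1 library left out. The cause of these shifts was not tested, beyond the smaller number of libraries.

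Same-numbered libraries did not deviate together in every pair (correlations between -0.02 and 0.21), so the numbers were not taken to pair the samples, although Rny1 followed the replicate number. Libraries of different number had correlations between -0.24 and 0.12. Whether the numbers mark a shared preparation was not tested. With a replicate block, 6723, 5882 and 1221 genes were called, against 7106, 6330 and 2172, partner genes for EGCG against control were 7, and Rn7s1 for overexpression against control had an adjusted p of 0.0591. Depth is unknown, so no counting error can be given.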

Other observations

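Rny1, a Y RNA of the Ro ribonucleoprotein, was named after its values were seen. It was listed at 0 in replicates 1 and 2 of every group, and at 6327 TPM in EGCG replicate 3, 16937 TPM in overexpression replicate 3 and 7384 TPM in control replicate 3. No difference between groups was called (limma, adjusted p between 0.947 and 0.994), and the high values follow the replicate number and not the group.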
